A study of Homo sapiens with 12 samples.

Results

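The genes described here carry glucose and lactate across the cell membrane, break glucose down to pyruvate, pass pyruvate to the mitochondrion or to lactate, and run the pentose phosphate pathway. They are a list of 38 genes chosen by name, and all 38 are among the 58907 genes of the deposited count table. Of these, 37 passed a filter on low counts that kept 15252 genes. The exception was PFKFB2, a member of the family that makes and breaks fructose 2,6-bisphosphate, which had 0 counts in each of the 12 libraries.

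The RNA was from cultured PPRE-eGEP-THP-1, derived from THP-1, an established human monocytic leukaemia line. The labels name this line and do not say how many clones it holds, and what PPRE stands for is not given there. Cells of every group were made into macrophages with a phorbol ester (phorbol 12-myristate 13-acetate) given at 25 ng/mL over 48 h, and left to rest another 24 h. M1 cells then received lipopolysaccharide at 100 ng/mL and interferon gamma at 20 ng/mL for 24 h, and M2 cells received interleukin 4 and interleukin 13 at 20 ng/mL each. Monocyclohexyl phthalate (MCHP), the monoester of a phthalate plasticizer, was added at 100 µM during polarization, or the solvent DMSO was added in its place. There were 4 groups of 3 libraries, namely MCHP-treated M1, DMSO-treated M1, MCHP-treated M2 and DMSO-treated M2, described in the labels as biological replicates without naming cultures or dates.

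Glycolysis turns glucose into pyruvate in the cytosol, with hexokinases and phosphofructokinases at the committed steps and GAPDH, PGK1, enolase and PKM in the later ones. The pentose phosphate pathway branches off glucose 6-phosphate: its oxidative arm makes NADPH, and its non-oxidative arm, run by transketolase and transaldolase, exchanges sugars with glycolysis. Macrophages activated with lipopolysaccharide are known for high glucose uptake and lactate release, whereas interleukin 4 is known to favour mitochondrial oxidation.

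Each library held 14352202 to 16871233 gene counts, and the 38 genes took 0.83% to 0.909% of them. Markers of the labelled states were checked first. In either medium, 12 of 12 tested M1 markers were higher in M1 than in M2 cells and 5 of 8 tested M2 markers were lower. The M2 marker CLEC10A, a lectin, was higher in M1 cells (log2 fold change 3.96 in DMSO). It was the only tested M2 marker called higher in DMSO, whereas 2 were called higher in MCHP. Of 10 macrophage markers, ITGAX, CSF1R and ITGAM were well counted. In contrast, CD68 averaged at most 0.385 CPM (counts scaled to a fixed library total with TMM factors), MSR1 at most 0.327 and MRC1 at most 0.0444 in any group. Whether these low values stem from the cells or from the counting of reads was not tested. Of 15 lymphocyte and stromal markers, 4 had no count in any library. The summed level of that list was 951 to 974.7 CPM in M1 with MCHP, 1010 to 1057 in M1 with DMSO, 1188 to 1287 in M2 with MCHP and 1185 to 1207 in M2 with DMSO, most of it PECAM1, which myeloid cells also express, and the part of these markers in the results was not tested. In bulk RNA, fewer cells of a kind and less RNA per cell cannot be told apart.

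M2 DMSO replicate 1 stood apart. The SD over the tested genes of its log2 difference from the mean of its group's other libraries was 0.445, whereas the remaining 11 libraries had SDs of 0.316 to 0.352. Over the 37 tested glycolysis and pentose phosphate genes the SD was 0.348, against 0.107 to 0.221. It held, for example, 376.3 CPM of the lactate exporter SLC16A3, against 620.3 and 613.4 CPM in the other M2 DMSO libraries. Calls that change without this library are given with and without it.

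Ordered by level per length (TPM, which scales counts by gene length and library, computed from the counts and the deposited gene lengths; mean of 12 libraries), the most abundant were GAPDH at 1462 TPM, PKM at 900.5, ENO1 at 685.7, PGD at 658.1, PGAM1 at 609.6 and TPI1 at 415.7. These are enzymes of later glycolysis, apart from PGD, the second dehydrogenase of the pentose phosphate pathway, and TPI1, which interconverts the triose phosphates. HK2, the inducible hexokinase, followed at 310.2 TPM, and SLC16A3 at 307.7 TPM. At the other end stood the pyruvate dehydrogenase kinases PDK1 at 2.83 and PDK3 at 2.49 TPM. ALDOA, the main aldolase of most cells, was listed at only 6.95 TPM, with 63 to 178 counts per library. In GENCODE release 29, 2 other gene models together overlap 53.5% of its exon bases, and the larger overlap is that of AC093512.2, on the same strand. Reads of ALDOA may thus not have been assigned to it, and its values are uncertain. For LDHB the model AC010197.2 overlaps 33.4% on the same strand, so its values are uncertain as well. Models on the opposite strand overlap 23.8% of RPE, 21.3% of PDHA1 and 14.2% of GAPDH, and the strand setting of the counting is not known. The model over GAPDH had 0 counts in every library and that over PDHA1 had 0 to 7. SENP1, on the opposite strand over 8.58% of PFKM, had 280 to 403 counts per library, against 95 to 205 for PFKM itself, whose values are thus uncertain too.

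In DMSO, 11 of the 37 tested genes were higher and 11 lower in M1 cells at an adjusted p under 0.05, and 15 were not called, against 42.5% of all tested genes called (21.6% higher and 20.9% lower). Glucose transporters and HK2 were higher in M1 cells, PDHA1 and PDHB, subunits of pyruvate dehydrogenase, were lower, and among the 6 genes of later glycolysis none was higher. Scaled by library size alone, the split was 7 higher and 16 lower, while over all genes it was 2395 higher and 4532 lower in place of 3296 and 3193; that scaling moves the median of all genes by -0.13 on the log2 scale. In MCHP, 8 genes were higher and 20 lower in M1 cells, against 44.6% of all genes called (21.9% higher and 22.7% lower), and the split of these genes was the same by library size alone, with 2678 higher and 4338 lower over all genes. The median log2 fold change was 0.01 in DMSO and -0.16 in MCHP, beside medians of 0.00 over all genes in both. All M1 libraries lay above all M2 libraries for 11 of the 37 genes in DMSO and below for 12, against 25.5% and 24.1% of all genes, and for 12 and 20 in MCHP, against 28.3% and 28.8%. In MCHP the mitochondrially encoded share of counts was 2.60% in M1 and 3.42% in M2 cells, and its part in these results was not tested.

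**Figure D1:**
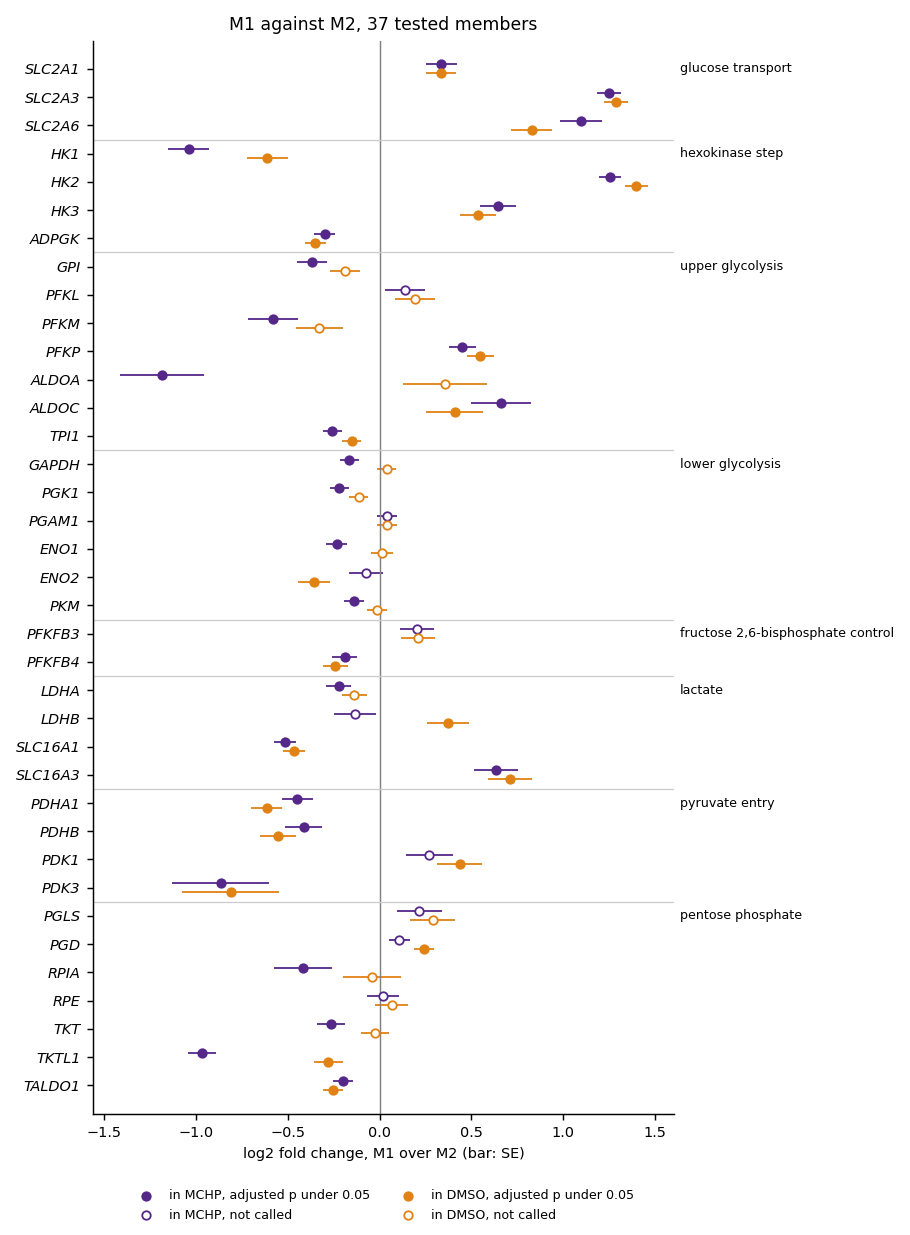
Log2 fold changes of M1 over M2 for the 37 tested genes, grouped by role, in MCHP (purple) and in DMSO (orange). Points are edgeR estimates with SE as bars, and filled points have an adjusted p under 0.05; HK2 and SLC2A3 lie above 1.2 in both media, while PDHA1, PDHB, PDK3 and SLC16A1 lie below zero in both.

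All 3 glucose transporters were higher in M1 cells. SLC2A3, a high-affinity transporter (ENSG00000059804, chromosome 12, 7919230 to 7936275, minus strand, hg38), had 133.6, 121.8 and 128.1 CPM in M1 DMSO libraries, against 53.75, 51.78 and 51.42 CPM in M2 DMSO libraries. With MCHP it had 110.4, 106.8 and 101.4 CPM in M1 and 45.84, 45.68 and 42.25 CPM in M2. The 6 M1 values lay above the 6 M2 values, with log2 fold changes of 1.29 ± 0.06 (SE; adjusted p = 6.41e-12) in DMSO and 1.25 ± 0.07 (adjusted p = 1.15e-11) in MCHP. Its near-identical copy SLC2A14 was also higher in M1 cells (1.89 in DMSO, adjusted p = 1.03e-08), and reads shared between the pair make both values uncertain. SLC2A6, a transporter of lysosomal membranes (ENSG00000160326, chromosome 9, 133471095 to 133479137, minus strand), had 39.31, 36.60 and 33.85 CPM in M1 DMSO libraries and 16.19, 22.54 and 22.86 CPM in M2 DMSO libraries. Its log2 fold change was 0.83 ± 0.11 in DMSO (adjusted p = 6.85e-06; 0.69 without M2 DMSO replicate 1) and 1.10 ± 0.11 in MCHP (adjusted p = 2.42e-07). SLC2A1, the basal transporter of most cells, differed less, by 0.33 ± 0.08 in DMSO (adjusted p = 0.00275) and 0.34 ± 0.08 in MCHP (adjusted p = 0.00285).

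**Figure D2:**
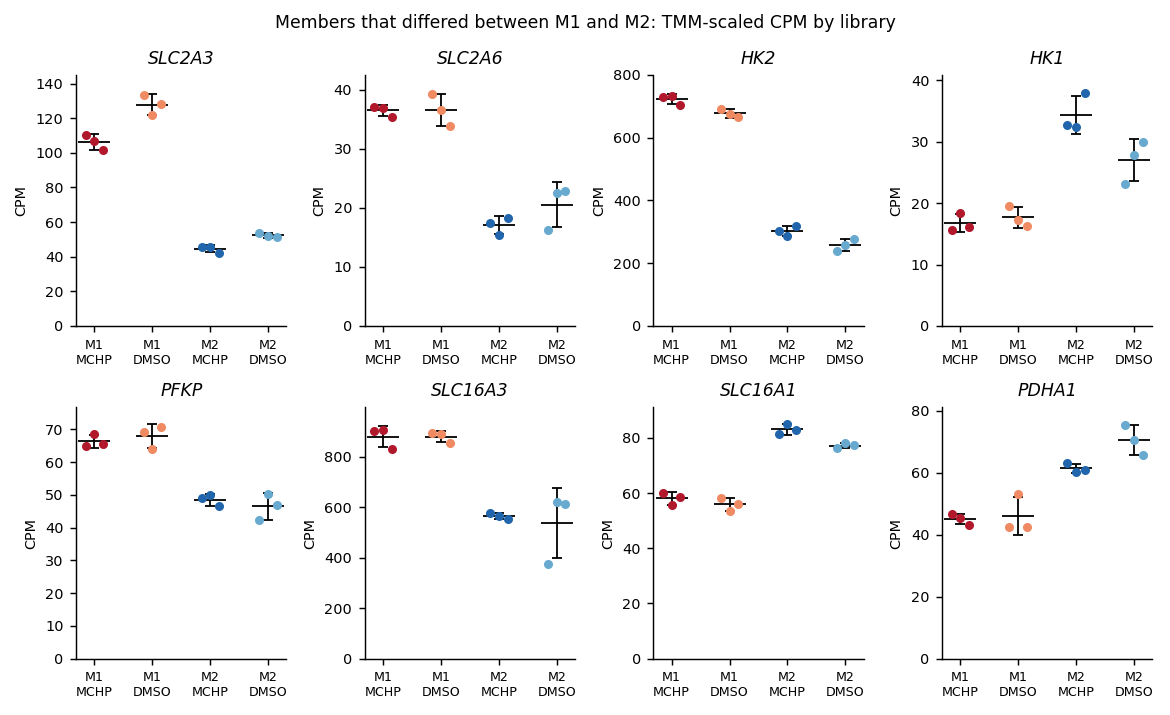
CPM, scaled with TMM factors, of 8 genes in each of the 12 libraries; points are libraries, and bars give the mean and SD of 3. For SLC2A3, SLC2A6, HK2, PFKP and SLC16A3 the M1 libraries lie above the M2 libraries, and for HK1, SLC16A1 and PDHA1 below them.

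At the first step of glycolysis the hexokinase isoforms moved in opposite directions. HK2 (ENSG00000159399, chromosome 2, 74833981 to 74893359, plus strand) had 691.7, 674 and 665.3 CPM in M1 DMSO libraries, against 237.1, 256.6 and 275.5 CPM in M2 DMSO libraries. In MCHP it had 730, 731.8 and 703.4 CPM in M1 and 300.8, 286 and 318.9 CPM in M2. The lowest M1 library was thus above 2 times the highest M2 library, and the log2 fold changes were 1.40 ± 0.06 in DMSO (adjusted p = 1.02e-12) and 1.26 ± 0.06 in MCHP (adjusted p = 4.18e-12). HK3, a myeloid hexokinase, was also higher in M1 cells, by 0.54 ± 0.10 in DMSO (adjusted p = 0.000159) and 0.65 ± 0.10 in MCHP (adjusted p = 2.16e-05). HK1, the hexokinase of most tissues (ENSG00000156515, chromosome 10, 69269984 to 69401884, plus strand), was lower. It had 19.59, 17.19 and 16.29 CPM in M1 DMSO libraries and 23.19, 27.83 and 29.93 CPM in M2 DMSO libraries, a log2 fold change of -0.61 ± 0.11 (adjusted p = 0.000194). In MCHP the HK1 values were 15.65, 18.38 and 16.06 CPM in M1 and 32.73, 32.33 and 37.87 CPM in M2, a log2 fold change of -1.04 ± 0.11 (adjusted p = 3.36e-07). ADPGK, which phosphorylates glucose with ADP in place of ATP, was lower in M1 cells by a smaller amount, at -0.35 ± 0.06 in DMSO (adjusted p = 5.87e-05) and -0.30 ± 0.06 in MCHP (adjusted p = 0.000304).

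Because a ratio of 2 genes within a library does not depend on scaling between libraries, the isoforms were also compared as ratios of counts per kilobase. The HK2 to HK1 ratio was 45.1 ± 3.56 in M1 with MCHP and 39.9 ± 2.95 in M1 with DMSO, against 9.16 ± 0.40 in M2 with MCHP and 9.92 ± 0.61 in M2 with DMSO (SD, n = 3). Of the summed signal of HK1, HK2 and HK3, HK2 supplied 87.6% and 86.9% per length in M1 cells with MCHP and with DMSO, against 77.45% and 75.2% in M2 cells. The share of HK3 was 10.4% and 10.95% in M1 cells, against 14.1% and 17.2% in M2 cells. Over the 10 ratios examined, the 6 M1 libraries did not overlap with the 6 M2 libraries for 6, namely HK2 to HK1, HK3 to HK1, PFKFB3 to PFKFB4, SLC2A3 to SLC2A1, SLC16A1 to SLC16A3 and PDK3 to PDK1. These ratios are descriptions and carry no test, and the share of other gene pairs that separate likewise was not counted. Among all single genes, compared as 3 against 3 libraries within each medium, every M1 library lay above every M2 library for 25.5% in DMSO and 28.3% in MCHP. Every M1 library lay below for 24.1% and 28.8%. That criterion is looser than 6 against 6 libraries, for which the share of single genes was not counted.

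**Figure D3:**
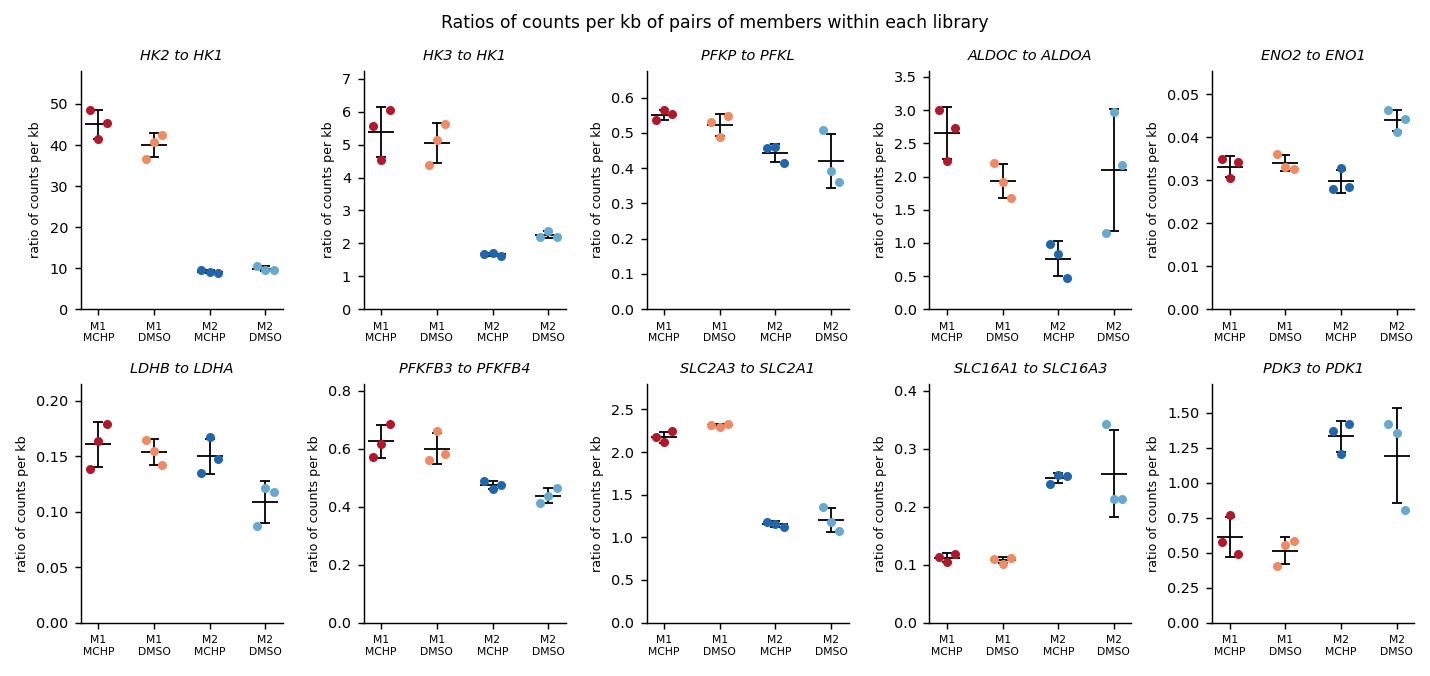
Ratios of counts per kilobase between pairs of genes within each of the 12 libraries; points are libraries, and bars give the mean and SD of 3. The HK2 to HK1 ratio lies at 36.7 or higher in M1 libraries and at 10.6 or lower in M2 libraries, and the SLC16A1 to SLC16A3 ratio lies at 0.119 or lower in M1 and at 0.213 or higher in M2 libraries.

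Promoter windows are shown for HK2 and SLC2A6, which had among the highest M1 over M2 values of the set; for SLC2A3 none was used. Windows of 300 bases, from 250 before to 50 after an annotated start, were taken from RefSeq (GRCh38.p14) for 35 of the 38 genes, 62 windows in all. The motifs searched on both strands were ACGTG and GCGTG, the cores of hypoxia response elements, bound by hypoxia-inducible factors, which are known activators of glycolytic genes. At least 1 of the pair was found in 61.3% of these windows and in 48.5% of all 35116 windows; ACGTG alone was in 33.9% against 21.4%, and GCGTG in 41.9% against 36.5%. The upstream HK2 start lies in the window chr2:74833877-74834176 and the downstream one in chr2:74834920-74835219, both on the plus strand. SLC2A6 lies on the minus strand, in the window chr9:133479050-133479349. Each sequence is written 5′ to 3′ on the strand of its gene, with capitals for matches to either core on either strand, so that CACGTG is a match on both.
HK2 upstream start: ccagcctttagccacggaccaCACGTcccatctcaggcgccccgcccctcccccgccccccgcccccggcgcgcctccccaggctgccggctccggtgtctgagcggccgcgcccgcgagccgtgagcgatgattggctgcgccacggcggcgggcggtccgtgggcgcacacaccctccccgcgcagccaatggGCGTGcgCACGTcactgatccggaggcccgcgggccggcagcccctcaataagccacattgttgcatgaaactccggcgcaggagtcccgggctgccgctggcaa
HK2 downstream start: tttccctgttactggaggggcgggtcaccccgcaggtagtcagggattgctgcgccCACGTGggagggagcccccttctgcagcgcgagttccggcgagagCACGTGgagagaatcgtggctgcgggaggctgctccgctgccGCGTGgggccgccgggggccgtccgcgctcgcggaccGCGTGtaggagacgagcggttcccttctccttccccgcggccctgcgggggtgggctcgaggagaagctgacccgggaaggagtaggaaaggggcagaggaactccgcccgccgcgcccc
SLC2A6: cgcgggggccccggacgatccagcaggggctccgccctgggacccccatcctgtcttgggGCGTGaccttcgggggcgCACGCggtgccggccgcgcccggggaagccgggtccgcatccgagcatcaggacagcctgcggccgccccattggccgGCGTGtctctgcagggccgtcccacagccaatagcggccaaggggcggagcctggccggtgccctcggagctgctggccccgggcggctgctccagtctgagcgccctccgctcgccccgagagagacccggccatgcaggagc
The upstream HK2 window held 2 matches to ACGTG and 1 to GCGTG, the downstream one 4 and 2, and the SLC2A6 window 0 and 3. A match is a stretch of letters and no evidence of binding.

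The middle of glycolysis showed smaller differences in both directions. Among 7 genes from GPI to TPI1, 2 were higher and 1 lower in M1 cells in DMSO, and 2 were higher and 4 lower in MCHP. PFKP, the platelet-type phosphofructokinase, had 69.26, 64.04 and 70.88 CPM in M1 DMSO libraries and 42.22, 50.19 and 47.03 CPM in M2 DMSO libraries. Its log2 fold change was 0.55 ± 0.07 in DMSO (adjusted p = 5.72e-06) and 0.45 ± 0.07 in MCHP (adjusted p = 5.36e-05). PFKL, the liver-type isoform and the most abundant phosphofructokinase per length, was not called, at 0.19 in DMSO and 0.14 in MCHP. Without M2 DMSO replicate 1, which had 153.4 CPM of PFKL against 236.5 and 239.9 CPM in its group, the DMSO value was 0.01 (adjusted p = 0.841) and the MCHP value was called, at 0.14 (adjusted p = 0.00397). PFKM, the muscle-type isoform, was at -0.33 ± 0.13 in DMSO (adjusted p = 0.0504) and was lower in MCHP, at -0.58 ± 0.14 (adjusted p = 0.00184). Scaled by library size alone, PFKM was called lower in DMSO as well, at -0.46 (adjusted p = 0.00864). The brain-type aldolase gene ALDOC was higher in M1 cells in both media, by 0.41 ± 0.16 in DMSO (adjusted p = 0.0427) and 0.66 ± 0.16 in MCHP (adjusted p = 0.00296), but the call in DMSO held in 10 of 19 alternatives and was lost, among others, without M2 DMSO replicate 1 (adjusted p = 0.0615). ALDOA was lower in M1 cells in MCHP, at -1.19 ± 0.23 (adjusted p = 0.000341), and not called in DMSO, at 0.36 ± 0.23 (adjusted p = 0.229). Its DMSO value depended on M2 DMSO replicate 1, which had 8.63 CPM against 3.71 and 4.67 CPM in the others of its group. Without that library ALDOA was higher in M1 cells in DMSO, at 0.78 (adjusted p = 0.000713). TPI1 was lower by 0.15 in DMSO (adjusted p = 0.0232, a call that held in 14 of 19 alternatives) and by 0.26 in MCHP (adjusted p = 0.000467), and GPI, which makes fructose 6-phosphate, was lower in MCHP by 0.37 (adjusted p = 0.00109). In DMSO GPI was at -0.19 (adjusted p = 0.07), at -0.30 (adjusted p = 3.05e-05) without M2 DMSO replicate 1, and at -0.32 (adjusted p = 0.00188) scaled by library size alone.

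Later glycolysis, where the most abundant transcripts lie, differed little. GAPDH had 1178, 1129 and 1116 CPM in M1 DMSO libraries and 1180, 1086 and 1065 CPM in M2 DMSO libraries, a log2 fold change of 0.04 (95% interval -0.07 to 0.15). PKM, pyruvate kinase, was at -0.02 in DMSO (95% interval -0.13 to 0.10), ENO1 at 0.01 (-0.11 to 0.14) and PGAM1 at 0.04 (-0.07 to 0.15), so that differences beyond about 0.15 in either direction lay outside these intervals. Scaled by library size alone, which moves the median of all genes by -0.13, PKM was called lower in M1 cells in DMSO, at -0.14 (adjusted p = 0.0255). PGK1 was called lower there too, at -0.24 (adjusted p = 0.000677). ENO2, the neuronal enolase, was the exception in the main fit in DMSO, with 26.66, 23.46 and 23.22 CPM in M1 and 29.80, 31.30 and 32.72 CPM in M2 libraries, a log2 fold change of -0.36 ± 0.09 (adjusted p = 0.00313). In MCHP 4 of the 6 genes were lower in M1 cells by small amounts: ENO1 at -0.23 (adjusted p = 0.00322), PGK1 at -0.22 (adjusted p = 0.00183), GAPDH at -0.16 (adjusted p = 0.0174) and PKM at -0.14 (adjusted p = 0.0492). The PKM call held in 7 of 19 alternatives. PGK1 was at -0.11 in DMSO (adjusted p = 0.0848) and was called there, at -0.12 (adjusted p = 0.0288), without M2 DMSO replicate 1. Of the control enzymes of fructose 2,6-bisphosphate, which stimulates phosphofructokinase, PFKFB4 was lower in M1 cells in both media (-0.24 in DMSO, adjusted p = 0.00819, and -0.19 in MCHP, adjusted p = 0.0318, a call that held in 13 of 19 alternatives). PFKFB3, its inducible relative, was at 0.21 in both media and was not called (adjusted p = 0.0776 in DMSO and 0.0784 in MCHP). PFKFB3 without M2 DMSO replicate 1 was at 0.11 in DMSO (adjusted p = 0.253) and was called in MCHP, at 0.21 (adjusted p = 0.0127).

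The lactate transporters moved apart. SLC16A3, the exporter of glycolytic cells (ENSG00000141526, chromosome 17, 82228397 to 82261129, plus strand), had 895.2, 889.1 and 854.3 CPM in M1 DMSO libraries against 376.3, 620.3 and 613.4 CPM in M2 DMSO libraries. The log2 fold change was 0.71 ± 0.12 (adjusted p = 9.01e-05) and was 0.51 (adjusted p = 4.37e-11) without M2 DMSO replicate 1, which held the lowest value. In MCHP it was 0.64 ± 0.12 (adjusted p = 0.000269). SLC16A1, which carries lactate and pyruvate either way, had 58.04, 53.39 and 56.18 CPM in M1 DMSO libraries and 76.18, 78.02 and 77.24 CPM in M2 DMSO libraries, a log2 fold change of -0.47 ± 0.06 (adjusted p = 5.08e-06), and was at -0.52 ± 0.06 in MCHP (adjusted p = 1.3e-06). Of the lactate dehydrogenase subunits, LDHA was at -0.14 in DMSO (adjusted p = 0.115) and lower in MCHP at -0.22 (adjusted p = 0.0123). Scaled by library size alone, LDHA was called lower in DMSO as well, at -0.27 (adjusted p = 0.00505). LDHB was higher in M1 cells in DMSO, by 0.37 ± 0.12 (adjusted p = 0.0135; 0.0911 scaled by library size alone), and at -0.13 in MCHP (adjusted p = 0.362).

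At the entry of pyruvate into the mitochondrion, both E1 subunit genes of the pyruvate dehydrogenase complex were lower in M1 cells. PDHA1, its catalytic alpha subunit, had 42.46, 53.05 and 42.63 CPM in M1 DMSO libraries and 75.48, 70.49 and 65.84 CPM in M2 DMSO libraries, a log2 fold change of -0.62 ± 0.08 (adjusted p = 7.19e-06). PDHB, the beta subunit, was at -0.56 ± 0.10 (adjusted p = 0.000137). In MCHP the differences were -0.45 ± 0.08 (adjusted p = 0.000258) for PDHA1 and -0.41 ± 0.10 (adjusted p = 0.00209) for PDHB. The kinases that switch the complex off went both ways: PDK1 was higher in M1 cells in DMSO, by 0.44 ± 0.12 (adjusted p = 0.00821; 0.06 scaled by library size alone), and PDK3 was lower, at -0.81 ± 0.26 (adjusted p = 0.0189) in DMSO and -0.87 ± 0.27 (adjusted p = 0.0124) in MCHP. PDK3 had 27 to 87 counts per library, its groups overlapped in DMSO, and it was not called there without M2 DMSO replicate 1 (-0.51, adjusted p = 0.113).

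In the pentose phosphate pathway some genes of each arm differed between M1 and M2 cells, and the arms as a whole were not tested. PGD, of the oxidative arm, had 535.1, 535.1 and 528.9 CPM in M1 DMSO libraries and 421.8, 468 and 460.7 CPM in M2 DMSO libraries, a log2 fold change of 0.24 ± 0.06 (adjusted p = 0.00142), and 0.12 (adjusted p = 0.0733) scaled by library size alone. In MCHP it was at 0.11 (adjusted p = 0.121), and called without M2 DMSO replicate 1 (adjusted p = 0.0202). Of the non-oxidative arm, TALDO1, transaldolase, was lower in M1 cells in both media (-0.25 in DMSO, adjusted p = 0.000935, and -0.20 in MCHP, adjusted p = 0.00672). The transketolase-like gene TKTL1 was lower by 0.28 ± 0.08 in DMSO (adjusted p = 0.00703) and by 0.97 ± 0.08 in MCHP (adjusted p = 3.97e-09). TKT, transketolase itself, was at -0.03 in DMSO, or at -0.13 (adjusted p = 0.0412) without M2 DMSO replicate 1, and lower in MCHP at -0.27 ± 0.08 (adjusted p = 0.00822). RPIA, which isomerizes ribose 5-phosphate, was lower in MCHP at -0.42 ± 0.16 (adjusted p = 0.0378), a call that held in 13 of 19 alternatives. PGLS, which opens the lactone of the oxidative arm, was at 0.29 in DMSO (adjusted p = 0.0666) and 0.22 in MCHP (adjusted p = 0.166). Leaving out M2 DMSO replicate 1, it was at 0.14 in DMSO (adjusted p = 0.213) and called in MCHP, at 0.22 (adjusted p = 0.0269), and in DMSO it was called without the filter on low counts (adjusted p = 0.00879) and when M1 DMSO replicate 3, M2 DMSO replicate 2 or M2 DMSO replicate 3 was left out. RPE was not called in either medium.

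The contrasts in DMSO and in MCHP rest on different libraries. Of the 37 tested genes, 18 were called in both, 8 of them higher and 10 lower in M1 cells, each in the same direction, which is 81.8% of the 22 called in DMSO and 64.3% of the 28 called in MCHP. Over all genes the shares were 81.0% and 77.2%. Called changes were mostly small: 2 of 22 in DMSO and 5 of 28 in MCHP passed a log2 fold change of 1 in size, against 29.9% and 29.4% of all called genes. Without M2 DMSO replicate 1, 11 genes were higher and 13 lower in DMSO, 20 of them also called with it. In MCHP, whose contrast meets that library only through the shared spread, 13 were then higher and 20 lower, PFKL, PFKFB3, PDK1, PGLS and PGD being added.

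Neighbouring pathways were counted in the same fit for M1 against M2 cells in DMSO, where 21.6% of all genes were higher and 20.9% lower. Of 23 tricarboxylic acid cycle genes, 3 were higher and 14 lower in M1 cells, with a median log2 fold change of -0.32 beside 0.00 over all genes. The lowest p among those that fell belonged to MDH1, cytosolic malate dehydrogenase (-1.13, adjusted p = 3.9e-10), IDH2, mitochondrial isocitrate dehydrogenase (-0.65, adjusted p = 2.74e-08), and FH, fumarase (-0.78, adjusted p = 1.98e-07), while ACOD1, which makes itaconate and is known as an M1 gene, rose by 4.26 (adjusted p = 1.28e-09). Of 10 other pyruvate entry genes, 2 were higher and 7 lower. The phosphatases that switch pyruvate dehydrogenase back on went opposite ways, PDP1 at 1.15 (adjusted p = 1.18e-11) and PDP2 at -1.22 (adjusted p = 6.4e-12), and MPC1, of the mitochondrial pyruvate carrier, was at -0.67 (adjusted p = 0.000355). PDHX, the E3-binding protein of the pyruvate dehydrogenase complex, was the other one higher, at 0.29 (adjusted p = 0.00635), DLD, its E3 subunit, was lower at -0.40 (adjusted p = 8e-04), and DLAT, its E2 subunit, was at -0.06 (adjusted p = 0.486); these 3 were named after their values were seen. Of 13 gluconeogenesis and glycogen genes, 1 was higher, PPP1R3B, which targets a phosphatase to glycogen (1.08), and 6 were lower, among them PYGL, liver glycogen phosphorylase (-0.71), and PGM1, phosphoglucomutase (-0.72). Among 8 further pentose phosphate and ribose genes, PRPS2 was higher (0.79) and PRPS1, of the same phosphoribosyl pyrophosphate synthetase family, lower (-0.69), as were H6PD (-0.36) and SHPK, sedoheptulokinase (-1.76). For hypoxia-inducible factors and their targets outside these 38 genes, 4 of 21 were higher and 5 lower, together 42.9% against 42.5% of all genes, with HIF1A at 1.12 ± 0.08 (adjusted p = 1.25e-09) and its known target VEGFA at -0.77 (adjusted p = 2.99e-09).

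In M2 cells, MCHP against DMSO gave calls for 5 of the 37 genes, or 13.5%, by edgeR's quasi-likelihood test. All 5 were higher and 0 lower, against 5.11% of all genes called (2.92% higher and 2.18% lower). An unadjusted p under 0.05 in either direction was found for 15, or 40.5%, beside 18.8% of all genes. The 5 were TKTL1, ENO1, ALDOA, HK2 and LDHB. DESeq2 called 6 higher and 2 lower, and limma-voom 5 higher and 1 lower, ENO2 and, for DESeq2, SLC2A3 being the lower ones. Scaled by library size alone, 3 were higher and 2 lower, beside 306 higher and 465 lower over all genes in place of 446 and 333, and with DESeq2 size factors 5 were higher and 2 lower. Without M2 DMSO replicate 1, 7 were higher and 5 lower, with 1747 genes called in place of 779; a fit of the M2 libraries alone called 1 of the genes, TKTL1, and 183 in all.

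TKTL1 (ENSG00000007350, chromosome X, 154295671 to 154330350, plus strand) had 69.54, 66.69 and 64.57 CPM in M2 cells with MCHP, against 35.54, 36.66 and 35.86 CPM with DMSO. The groups did not overlap, and the lowest library with MCHP was well above the highest with DMSO. The log2 fold change was 0.89 ± 0.07 (adjusted p = 8e-07), from 943 to 1149 counts per library with MCHP and 564 to 629 with DMSO. It was called in 19 of 19 alternatives, with values of 0.85 to 0.91, and stood 11th by p among all genes and 10th among the 446 that were higher. TKTL1 resembles transketolase but lacks part of its cofactor-binding region, and whether it acts as a transketolase is debated. TKT was at 0.19 ± 0.08 (adjusted p = 0.184). Of the per-length signal of TKT and TKTL1 together, TKTL1 held 40.25% ± 1.97 with MCHP and 29.35% ± 2.46 with DMSO in M2 cells (SD, n = 3), and 29.2% ± 1.61 with MCHP and 25.7% ± 1.27 with DMSO in M1 cells.

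**Figure D4:**
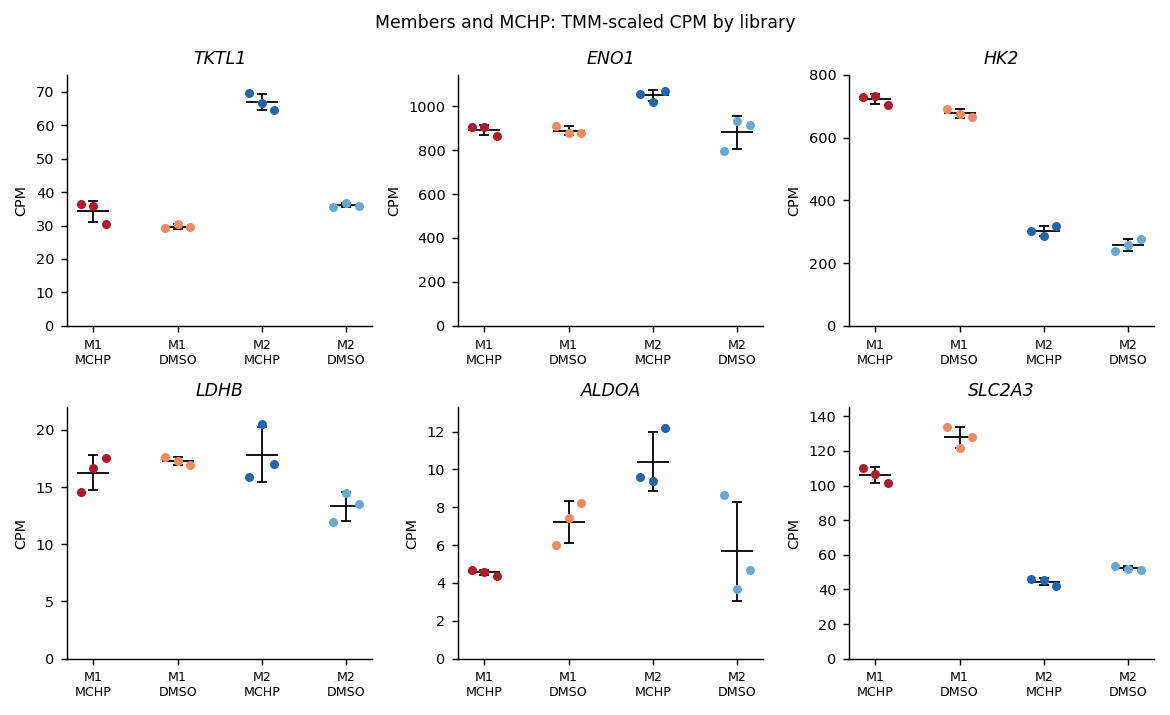
CPM, scaled with TMM factors, of 6 genes in each of the 12 libraries; points are libraries, and bars give the mean and SD of 3. For TKTL1 the M2 libraries with MCHP lie at 64.6 to 69.5 CPM, above the other 9 libraries, at 29.2 to 36.7 CPM.

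Both RefSeq windows of TKTL1 are shown because it had the smallest p of the set with MCHP. They lie in chrX:154295545-154295844 and chrX:154304920-154305219 on the plus strand of GRCh38.p14, again from 250 bases before to 50 after a start. Besides the hypoxia cores, they were searched on both strands for AGGTCA, the half-site of nuclear receptors, and for AGGTCANAGGTCA, the spaced repeat typical of PPAR response elements. Neither window held a match to any of the 4 motifs, so no letters are in capitals.
TKTL1 upstream start: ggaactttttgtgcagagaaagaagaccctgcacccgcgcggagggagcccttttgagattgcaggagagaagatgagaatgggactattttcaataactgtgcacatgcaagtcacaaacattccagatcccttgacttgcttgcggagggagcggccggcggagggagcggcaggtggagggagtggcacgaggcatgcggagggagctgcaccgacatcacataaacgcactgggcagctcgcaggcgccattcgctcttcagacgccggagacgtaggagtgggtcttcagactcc
TKTL1 downstream start: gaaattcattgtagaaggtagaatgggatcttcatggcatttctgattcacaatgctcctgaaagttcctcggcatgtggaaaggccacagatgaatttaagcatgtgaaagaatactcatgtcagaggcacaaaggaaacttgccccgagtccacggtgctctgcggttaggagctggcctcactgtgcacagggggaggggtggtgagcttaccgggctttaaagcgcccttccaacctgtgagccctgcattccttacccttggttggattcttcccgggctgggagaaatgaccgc
Over the 62 windows of the set, AGGTCA was found in 16.1%, against 13.8% of all windows, and the spaced repeat in 0, against 0.0228%. These letters being absent from the windows says nothing of binding elsewhere.

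The other genes called with MCHP in M2 cells changed less or were less stable. ENO1 (ENSG00000074800, chromosome 1, 8861000 to 8879250, minus strand) had 1056, 1019 and 1071 CPM with MCHP and 794.8, 934.1 and 912.4 CPM with DMSO, a log2 fold change of 0.25 ± 0.06 (adjusted p = 0.0166; 0.18 and 0.0024 without M2 DMSO replicate 1). HK2 had 300.8, 286 and 318.9 CPM with MCHP and 237.1, 256.6 and 275.5 CPM with DMSO, a log2 fold change of 0.24 ± 0.06 (adjusted p = 0.0299). LDHB had 15.88, 20.49 and 17.05 CPM with MCHP and 11.97, 14.48 and 13.51 CPM with DMSO, a log2 fold change of 0.42 ± 0.11 (adjusted p = 0.0397). ALDOA had 9.62, 9.40 and 12.19 CPM with MCHP and 8.63, 3.71 and 4.67 CPM with DMSO, a log2 fold change of 0.88 ± 0.22 (adjusted p = 0.0264), and 1.31 (adjusted p = 7.18e-06) without M2 DMSO replicate 1. In each of these 4 genes the groups did not overlap, as for 11.2% of all genes in that direction. Of the 37 tested genes, 9 had every MCHP library above every DMSO library and 5 had every one below, against 11.2% and 9.53% of all genes. Their calls held in 16 (ENO1), 14 (ALDOA), 13 (HK2) and 9 (LDHB) of 19 alternatives. ENO1, HK2 and ALDOA were lost without M2 MCHP replicate 1 or replicate 3, HK2 also without M2 DMSO replicate 2 or M1 MCHP replicate 2, and ALDOA without M2 DMSO replicate 2 or 3. LDHB was lost without M2 MCHP replicate 2 or 3, without M2 DMSO replicate 3 and without any of 5 M1 libraries, that is, all but M1 MCHP replicate 1.

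The remaining 32 tested genes were not called in M2 cells and had log2 fold changes of -0.43 to 0.37. Close to the threshold were ENO2 at -0.31 ± 0.09 (adjusted p = 0.0509), SLC2A3 at -0.23 ± 0.07 (adjusted p = 0.0519) and HK1 at 0.34 ± 0.11 (adjusted p = 0.0705). The values of ENO2 were 23.95, 27.16 and 24.58 CPM with MCHP and 29.80, 31.30 and 32.72 CPM with DMSO. They did not overlap, as for 9.53% of all genes in that direction. All 3 glucose transporters had negative estimates (-0.18 to -0.27), none called. Without M2 DMSO replicate 1 they were called lower, SLC2A1 at -0.24 (adjusted p = 0.0391), SLC2A3 at -0.21 (adjusted p = 0.0319) and SLC2A6 at -0.42 (adjusted p = 0.00288), as were PFKL at -0.24 (adjusted p = 0.000361) and ENO2 at -0.34 (adjusted p = 0.00948). In that fit GAPDH at 0.12 (adjusted p = 0.0497) and RPIA at 0.50 (adjusted p = 0.0337) were called higher. Beside these values, mitochondrially encoded transcripts took 3.42% of the counts in M2 cells with MCHP and 2.82% with DMSO, and 9 of 13 of them were called higher. Of 8 tested M2 markers 4 were lower and 1 higher with MCHP (median log2 fold change -0.56), with a summed level of 11340 to 11540 CPM with MCHP and 8894 to 11290 CPM with DMSO. Of 7 tested macrophage markers 2 were lower (2985 to 3174 CPM with MCHP and 2959 to 3390 CPM with DMSO), and of 6 tested dendritic cell markers 1 was lower (127.2 to 138.9 CPM with MCHP and 189.2 to 206 CPM with DMSO). The part of these in the results above was not tested.

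**Figure D5:**
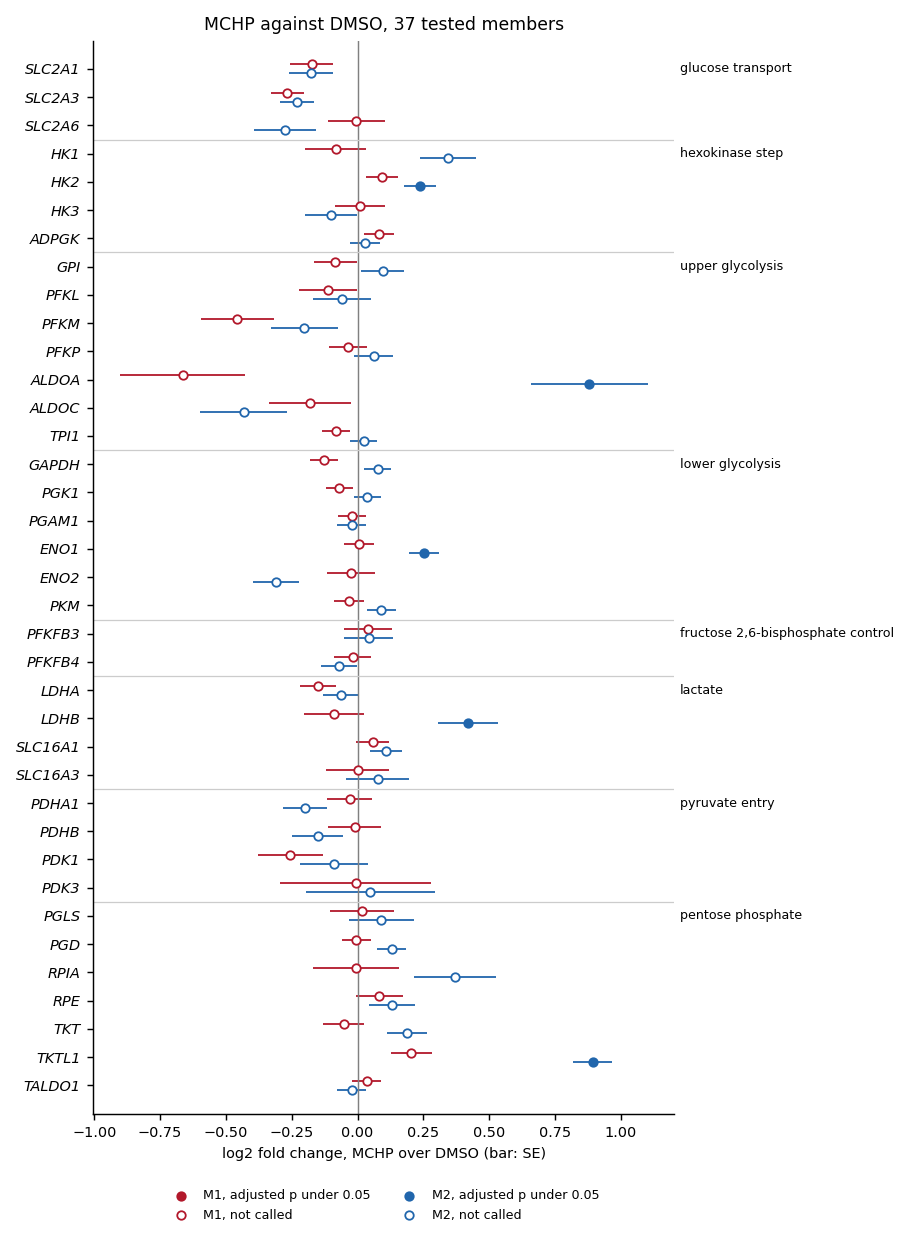
Log2 fold changes of MCHP over DMSO for the 37 tested genes, grouped by role, in M1 cells (red) and in M2 cells (blue). Points are edgeR estimates with SE as bars, and filled points have an adjusted p under 0.05; these are TKTL1, ENO1, ALDOA, HK2 and LDHB in M2 cells.

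In M1 cells, edgeR called 0 of the 37 genes with MCHP, against 0.0852% of all genes, or 13 (0.0721% higher and 0.0131% lower), and 7 of the genes had an unadjusted p under 0.05, beside 5.36% of all genes. DESeq2 called 1, SLC2A3 lower, limma-voom 0, and a fit of the M1 libraries alone 4 lower (SLC2A3, ALDOA, GAPDH and LDHA). Without M2 DMSO replicate 1, which the M1 contrast meets only through the shared spread, SLC2A3 (adjusted p = 0.00365) and ALDOA (adjusted p = 0.0389) were called lower. SLC2A3 had 110.4, 106.8 and 101.4 CPM with MCHP and 133.6, 121.8 and 128.1 CPM with DMSO, a log2 fold change of -0.27 ± 0.06 (adjusted p = 0.165). The groups did not overlap, as for 7.58% of all genes in that direction. PFKM had 5.95, 7.55 and 7.15 CPM with MCHP and 10.36, 9.30 and 8.65 CPM with DMSO, at -0.46 ± 0.14 (adjusted p = 0.464). For PFKM, too, each MCHP library lay below each DMSO library. TKTL1 had 36.37, 35.74 and 30.56 CPM with MCHP and 29.23, 30.40 and 29.46 CPM with DMSO, at 0.20 ± 0.08 (adjusted p = 0.767), with MCHP libraries above DMSO libraries, as for 8.35% of all genes. HK2 was at 0.09 (95% interval -0.03 to 0.22), ENO1 at 0.01 (-0.12 to 0.13) and SLC16A3 at 0.00 (-0.25 to 0.25). Over the 37 genes the estimates ran from -0.66 to 0.20, with a median of -0.03 beside 0.00 over all genes, and 11 were positive. Every MCHP library lay below every DMSO library for 10 of the 37 and above for 3, against 7.58% and 8.35% of all genes.

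The responses of M1 and M2 cells to MCHP differed for 1 of the 37 genes in the test of the difference itself, TKTL1, against 0.164% of all genes called (0.059% higher and 0.105% lower). Its response in M1 minus its response in M2 was -0.69 ± 0.11 on the log2 scale (adjusted p = 0.0119). The call was lost without M1 DMSO replicate 2 (adjusted p = 0.065) and without M2 MCHP replicate 1 (adjusted p = 0.0603), and was firmer without M2 DMSO replicate 1 (adjusted p = 0.000242). ALDOA came next at -1.54 ± 0.33 (adjusted p = 0.0714). It was called without a filter on low counts, by DESeq2 and without M2 DMSO replicate 1 (-1.97, adjusted p = 1.43e-05). The fit without that library also called GAPDH, at -0.25 (adjusted p = 0.0105). For LDHB the difference was -0.51 ± 0.16 (adjusted p = 0.32), for ENO1 -0.25 ± 0.08 (adjusted p = 0.365) and for HK2 -0.14 ± 0.09 (95% interval -0.32 to 0.04). Of the 37 genes, 8 had an unadjusted p under 0.05 for the difference, beside 8.84% of all genes. The unadjusted 95% intervals were wholly negative for ALDOA (-2.23 to -0.86), LDHB (-0.85 to -0.17) and ENO1 (-0.42 to -0.07). These were picked as called higher in M2 cells, whose response is subtracted here, which favours negative values. Also wholly negative were HK1 (-0.76 to -0.10), GAPDH (-0.36 to -0.05) and TKT (-0.47 to -0.01), while ENO2 was wholly positive (0.02 to 0.55). For the members called in M2 cells other than TKTL1, the main fit called no difference after adjustment over all genes. That lack of a call does not show that the responses were alike.

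In the neighbouring pathways, MCHP against DMSO in M2 cells gave calls for 2 of 23 tricarboxylic acid cycle genes, 3 of 13 gluconeogenesis and glycogen genes and 4 of 21 hypoxia-inducible factors and targets, that is, 8.7%, 23.1% and 19% beside 5.11% of all genes. In M1 cells none of their tested members was called. In M2 cells ACO1, cytosolic aconitase, was higher (0.40, adjusted p = 0.00448), and ACOD1, counted 0 to 1 times per library with MCHP and 3 to 7 times with DMSO, was lower (adjusted p = 0.0301). Of 13 gluconeogenesis and glycogen genes, 2 were higher and 1 lower, among them GBE1, the branching enzyme of glycogen, at 0.32 (adjusted p = 0.0244) and PPP1R3B at -0.33 (adjusted p = 0.0193). Of 21 hypoxia-inducible factors and targets, HILPDA, which coats lipid droplets (1.27, adjusted p = 0.00118), EPAS1, a hypoxia-inducible factor subunit (0.43, adjusted p = 0.00596), and ANGPTL4, which blocks lipoprotein lipase (0.61, adjusted p = 0.0185), were higher, while VEGFA was lower (-0.24, adjusted p = 0.0196). Of 8 other glycolytic isoforms, 10 pyruvate entry genes and 8 pentose phosphate and ribose genes, 0 were called by edgeR, with 1, 0 and 2 at an unadjusted p under 0.05, beside 18.8% of all genes.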

How the data were processed

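The authors deposited 1 table of raw counts per gene, whole numbers with no normalization, for 12 libraries, beside each gene model's length in bases, per the file headers. As tools, the submitters' processing notes list featureCounts 1.5.0-p3, HISAT2 2.0.5, fastp, DESeq2 1.20.0 and StringTie 1.3.3b, without roles, and the build is hg38. The strand setting is not given in the sources used here, so reads of overlapping and antisense genes could not be told apart. Per the labels' protocols, mRNA was selected on poly-T beads and cDNA was primed at random.

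The fit used edgeR 4.0.16 under R 4.3.3: filterByExpr, TMM factors, 1 mean per group over 12 libraries (8 residual degrees of freedom), the quasi-likelihood F-test (two-sided) and Benjamini-Hochberg adjustment over 15252 genes, threshold 0.05. The 5 contrasts were M1 against M2 in each medium, the MCHP response of each state, and the difference of both responses. In every library 99.8% or more of the counts fell on tested genes. CPM are TMM-scaled, and intervals are 95%. Where nothing names cultures, p-values measure the spread between libraries, which may be technical. No libraries were near-duplicates.

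The 38 genes, 14 other lists (205 genes), tests and alternatives were chosen with earlier results of these data known. Full values are given for called members, at most 4 per role with the smallest p, and from each list at most 4 called genes with the smallest p; other members are named to account for all 38. The steps were tested on simulated counts. Alternatives were DESeq2 size factors, no low-count filter, library size alone, a replicate block, DESeq2 1.42.0, limma-voom (limma 3.58.1), fitting the compared libraries alone, and leaving out each library. Promoter sequences are from RefSeq; protein sequences are not used here. One called list gene is not reported here by name.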

Additional observations from a re-analysis of the deposited data

Results flagged for a closer look

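The response of TKTL1 to MCHP differed between the polarization states by a test of the difference itself, with a log2 value of -0.69 ± 0.11 (SE) for M1 minus M2 (edgeR, adjusted p = 0.0119 over all genes). It was 0.20 ± 0.08 in M1 cells and 0.89 ± 0.07 in M2 cells, with every MCHP library above every DMSO library in both states. Among the 18 alternatives run on it the difference was called in 16, with values of -0.74 to -0.61 and adjusted p of at most 0.065.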

How the results depend on the processing

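Among the 37 tested genes, no value changed sign past the threshold under any alternative run. Genes named from the other lists were not followed one by one in the alternatives. Over all genes, the M1 response to MCHP gave 13 calls, then 76 without the low-count filter, 5 with the replicate block, 50 by DESeq2 and 295 in the fit of the compared libraries only. The M2 response gave 779, and 183 in the fit of the compared libraries only. The difference of responses gave 25, and 170 without a filter and 96 by DESeq2. Among the 37 genes, the M1 response gave 0 calls, and 1 by DESeq2 and 4 in the fit of the compared libraries only; the M2 response gave 5, and 8 by DESeq2 and 1 in that fit; the difference gave 1, and 2 without a filter and 2 by DESeq2. Leaving out each library in turn gave, over all genes, 1 to 159 calls for the M1 response, 383 to 1747 for the M2 response, 5620 to 7216 for M1 against M2 in DMSO, 5916 to 8014 in MCHP and 5 to 385 for the difference. Among the 37 genes it gave 0 to 2, 1 to 12, 20 to 25, 22 to 33 and 0 to 3. The highest counts over all genes all came without M2 DMSO replicate 1. Same-numbered libraries did not deviate together (correlations of -0.048 to 0.039), so the labels' replicate numbers are not taken as pairs; with the replicate block the 37 genes gave 0 calls in M1, 5 in M2, 23 and 26 for M1 against M2 in DMSO and MCHP, and 1 for the difference. The fit of the compared libraries only could not be run for the difference, which uses all 12. Low counts limit PDK3, ALDOA, ALDOC and RPIA most, whose standard errors for M1 against M2 were 0.16 to 0.27 on the log2 scale.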

Other observations

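Genes of the NRF2 pathway, which controls antioxidant defence, were listed with NRF2 itself (NFE2L2) and its inhibitor KEAP1 included. In DMSO 3 of the 15 tested were higher and 7 lower in M1 than in M2 cells by edgeR's adjusted p, beside 21.6% and 20.9% of all genes. The smallest p belonged to GSR, glutathione reductase, at a log2 fold change of -0.92, TXNRD1, thioredoxin reductase, at -0.54, FTH1, the ferritin heavy chain, at 1.72, and HMOX1, haem oxygenase, at -0.68. In MCHP 4 were higher and 7 lower, beside 21.9% and 22.7% of all genes. With MCHP against DMSO edgeR called 0 of the 15 in M1 cells and 0 in M2 cells, with 1 and 5 at an unadjusted p under 0.05, beside 5.36% and 18.8% of all genes.

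Other glucose transporter genes outside the 38 also differed between M1 and M2 cells in DMSO. SLC2A9, a urate and hexose transporter, was higher at 1.84 and SLC2A5, the fructose transporter, at 0.55, while SLC2A8 was lower at -0.67. Of 6 tested dendritic cell markers 2 were higher and 4 lower in M1 cells in DMSO. Of 15 tested markers of undifferentiated and dividing monocytic cells 2 were higher and 2 lower, or 26.7%, beside 42.5% of all genes called. Over all genes 21.6% were higher and 20.9% lower.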
